A study of Arabidopsis thaliana with 12 samples.

Results

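SWEET11, SWEET13 and ATSPS4F are 3 Arabidopsis thaliana genes of sucrose supply, and they were picked by name from the 13286 genes that have a probe set of a single gene on an Affymetrix array (22746 probe sets without controls). The choice was made with earlier results of these arrays known. Which values served for it is not stated, and lower values under high formaldehyde than in clean air are assumed to be among them, so levels that involve those groups are described here without a test. That the choice did not rest on low formaldehyde or outside values is likewise assumed, and the tests of low formaldehyde against outside plants depend on it. Each gene had 1 probe set that names a single gene (252327_at for SWEET11, 248467_at for SWEET13 and 255016_at for ATSPS4F). All 3 passed the filter on low values, a log2 value above 4 on at least 3 of the 12 arrays, but SWEET13 exceeded 4 on 6 arrays only.

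Rosette leaves came from wild-type plants of the ecotype Columbia, 7 weeks old, which had been raised on sucrose-containing agar and then in soil and were held in constant light at 24 °C for 72 h. The 4 groups of 3 plants were then treated for 150 min. They were plants kept outside the chamber (below 0.08 ppm formaldehyde), plants in the chamber with clean air (below 0.04 ppm), with low formaldehyde (1 to 2 ppm) and with high formaldehyde (14 to 16 ppm). Plants of 1 chamber group shared a single run, so run and treatment cannot be told apart, and p-values reflect only how plants of the same run vary.

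Leaf mesophyll makes sucrose in the cytosol from photosynthetic triose phosphate. Sucrose phosphate synthase joins UDP-glucose to fructose 6-phosphate and is the main control point, and sucrose phosphatase then releases sucrose. SWEET proteins are membrane channels that let sugars move down their gradient. In Arabidopsis leaves SWEET11, together with its close relative SWEET12, releases sucrose from phloem parenchyma into the cell wall space, from which a proton symporter loads it into the phloem. SWEET13 belongs to the same sucrose-transporting branch of the family. ATSPS4F encodes a sucrose phosphate synthase of leaves.

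Values are log2 expression values, normalised by the authors with GCRMA, and every array shares a lowest value of 2.11. A value of 4 or less was treated as not above background. The level of one probe set was not set against that of another. In leaf RNA, fewer cells of a type and less RNA per cell cannot be told apart. Array medians lay between 5.71 and 5.90. Arrays of the low group had a bioC spike-in signal of 8.78 ± 0.13, against 6.53 ± 0.26 in clean air (log2, SD, n = 3). It was 6.99 ± 0.21 outside the chamber and 7.23 ± 0.23 under high formaldehyde. The spike-in scaling described below did not use bioC. The 3' minus 5' signal of control transcripts, which rises as RNA degrades, was 1.60 ± 0.21 under high formaldehyde and 1.47 ± 0.05 under low formaldehyde, against 1.21 ± 0.05 in clean air, in each case over all such control probe sets. The order of the 4 groups was the same over either of the 2 series of these controls on the array. The 3 mesophyll markers with a named probe set, RCA, PRK and SBPASE, exceeded 4 on all arrays, and the root marker EXPA7 was at the lowest value, 2.11, in every group.

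SWEET13 had the widest swing of the 3 genes, and its high level was a feature of the clean-air plants. In plants outside the chamber it read 5.16, 7.58 and 3.23, and in clean air 7.62, 7.62 and 9.21. Under low formaldehyde the values were 3.33, 3.97 and 4.19, and under high formaldehyde 3.40, 2.94 and 2.86 (log2, replicates 1 to 3). All clean-air arrays lay above all arrays of the other groups, although the outside plant of replicate 2 came within 0.03 of the lowest of them. All 3 arrays of the high group and 2 of the 3 arrays of the low group were at background.

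Under high formaldehyde SWEET13 averaged 3.06 ± 0.29, against 8.15 ± 0.92 in clean air (log2, SD, n = 3). As the high arrays were all at background, this is at least 17.8-fold lower. The log2 difference of the deposited values was -5.09 ± 0.85 (SE), and it was -4.15 with values below 4 raised to 4. That SE pools the spread of all groups and was 0.45 in the fit of the high and clean-air arrays alone. Low formaldehyde gave 3.83 ± 0.45 and a log2 difference from clean air of -4.32 ± 0.85 (SE), or -4.09 with values below 4 raised to 4. SWEET13 was thus close to background at both doses, and the high and low arrays overlapped (difference -0.77, and -0.06 with values below 4 raised to 4).

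Set against plants outside the chamber, the picture of SWEET13 was less sharp. The outside plants averaged 5.33 ± 2.18, with 1 plant at background and 1 nearly as high as the clean-air plants. Clean air minus outside was 2.82 ± 0.85 (log2, SE), but 1.78 without outside replicate 3 and 3.95 without outside replicate 2. High minus outside was -2.26 ± 0.85, and the groups overlapped. Low minus outside, whose means use neither the high nor the clean-air arrays, was tested with limma and did not pass. Its SE does draw on all 12 arrays, as the groups share 1 estimate of the spread. Its log2 difference was -1.49, with a 95% confidence interval of -3.37 to 0.38 and an adjusted p of 0.195, or 0.318 in the limma fit of those 6 arrays alone. Without replicate 3 of the outside group, the plant at background, the difference was -2.54 and passed (adjusted p = 0.0185 in limma), and without replicate 2 it was -0.36 (adjusted p = 0.687). In order of group means SWEET13 ran from high through low and outside to clean air, and only the clean-air group stood clear of its neighbour.

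**Figure D1:**
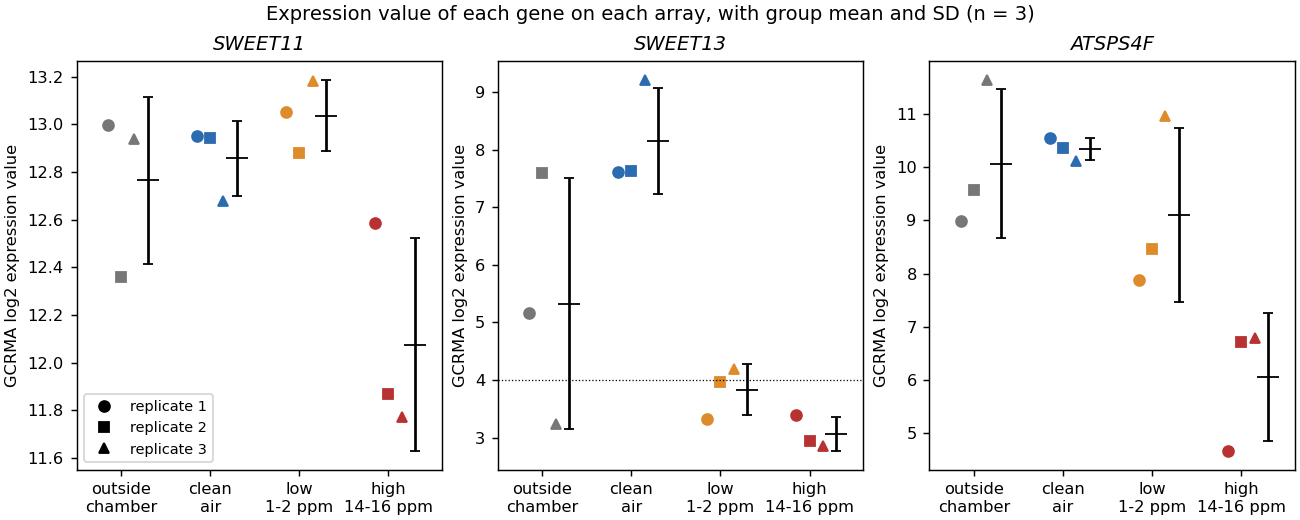
GCRMA log2 expression values of SWEET11, SWEET13 and ATSPS4F on each of the 12 arrays, by group, with group mean and SD as black bars (n = 3); the vertical axes differ between panels and the dotted line marks the log2 value 4. SWEET13 is high in clean air and near background at both doses, ATSPS4F is lowest under high formaldehyde, and SWEET11 spans a narrower range.

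ATSPS4F was lower under high formaldehyde than in every other group. Its log2 values were 8.99, 9.57 and 11.64 outside the chamber and 10.54, 10.36 and 10.12 in clean air. They were 7.87, 8.47 and 10.95 under low formaldehyde and 4.67, 6.72 and 6.79 under high formaldehyde. The 3 high arrays lay below the 9 others, with a gap of 1.08 to the nearest, a low-formaldehyde plant. Every array of this gene was above background.

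ATSPS4F averaged 6.06 ± 1.21 under high formaldehyde, against 10.34 ± 0.21 in clean air (log2, SD, n = 3), a 19.5-fold lower level and a log2 difference of -4.28 ± 0.86 (SE). The difference from the low group was -3.04 ± 0.86 and that from plants outside the chamber -4.01 ± 0.86. High replicate 1 gave both the lowest ATSPS4F value and the largest 3' minus 5' control signal, 1.83 against 1.55 and 1.41 on the other high arrays. Without that array the difference from clean air was -3.59. The part of RNA quality in the result was not tested.

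At low formaldehyde ATSPS4F was split between plants. Replicates 1 and 2 were below every clean-air plant, while replicate 3 was above them all. The group mean was 9.10 ± 1.63, and low minus clean air was -1.24 ± 0.86 (log2, SE), ranging from -2.17 without low replicate 3 to -0.63 without low replicate 1. Low minus outside did not pass limma's test (difference -0.97, 95% confidence interval -2.87 to 0.93, adjusted p = 0.411). That difference was -1.90 without low replicate 3 and -0.18 without outside replicate 3 (limma adjusted p = 0.0912 and 0.892). With a replicate block it stayed at -0.97 (SE 0.63 against 0.86, limma adjusted p = 0.259). ATSPS4F values rose from replicate 1 to 3 in the outside, low and high groups and fell in clean air. Clean air and outside plants overlapped, with a difference of 0.27 ± 0.86. In order of group means the gene ran high, low, outside, clean air, and the last 3 groups did not separate beyond their spread.

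SWEET11 gave the smallest differences between high formaldehyde and clean air. The log2 values were 13.00, 12.36 and 12.94 outside the chamber and 12.95, 12.94 and 12.68 in clean air. Low formaldehyde gave 13.05, 12.88 and 13.18, and high formaldehyde 12.59, 11.87 and 11.77. The high arrays were below those of clean air and of low formaldehyde but overlapped with those outside the chamber, where replicate 2 was lower than high replicate 1.

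SWEET11 averaged 12.07 ± 0.45 under high formaldehyde, against 12.86 ± 0.16 in clean air (log2, SD, n = 3), a 1.72-fold lower level. The log2 difference was -0.78 ± 0.23 (SE). The gap between the highest high array and the lowest clean-air array was 0.09. High minus low was -0.96 ± 0.23, with a gap of 0.29 between the groups. Low formaldehyde, clean air and outside plants overlapped. Low minus clean air was 0.18 ± 0.23, and low minus outside was 0.27, with a 95% confidence interval of -0.22 to 0.77 (limma, adjusted p = 0.374). The order of group means was high, outside, clean air, low, and no neighbours in that order separated, though the high group lay apart from the clean-air and low groups.

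All 3 genes therefore had no overlap between high formaldehyde and clean air, where 52.9% of all tested probe sets were called at an adjusted p under 0.05 in limma and 30.1% of all were called lower. As these groups are assumed to have served in choosing the genes, nothing is read from that count. Under low formaldehyde 1 of the 3, SWEET13, lay wholly below clean air, with 11.4% of all probe sets called lower. Between high and low formaldehyde SWEET11 and ATSPS4F did not overlap and SWEET13 did, with 49.8% called and 28.7% called lower. Clean air stood wholly above the outside of the chamber for SWEET13 alone of the 3, by 0.03, with 1.70% of probe sets called higher and 1.34% lower. The shares given so far in this paragraph count limma calls, which is not the same measure as groups without overlap. The share of all probe sets without overlap was not computed, so these counts have no like share beside them. In the test of low formaldehyde against outside plants 0 of 3 passed, with 35.5% of all probe sets called. At an unadjusted p under 0.05 none passed either (0.107 for SWEET13, the lowest).

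SWEET13 and ATSPS4F also had a large spread between plants, though not in every group. The pooled SD within groups was 1.21 for SWEET13 and 1.24 for ATSPS4F (log2), larger than in 98.6% and 98.8% of tested probe sets. The median over tested probe sets was 0.26. For SWEET11 the pooled SD was 0.30, larger than in 61.3%. By group the SD of SWEET13 was 2.18 outside, 0.92 in clean air, 0.45 at low and 0.29 at high formaldehyde. That of ATSPS4F was 1.40 outside, 0.21 in clean air, 1.63 at low and 1.21 at high formaldehyde. Deviations within a group differed between the genes. Outside replicate 3 had the lowest SWEET13 value and the highest ATSPS4F value of its group. High replicate 1 had the lowest ATSPS4F value and the highest SWEET11 value of its group. Over the 12 arrays Pearson's r was 0.51 between SWEET13 and ATSPS4F, 0.57 between SWEET11 and ATSPS4F and 0.23 between the SWEET genes. After group means were subtracted these were -0.34, -0.15 and -0.45, given as a description of arrays that share a scaling and, within each chamber group, a run.

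The rest of the SWEET family was mostly at background in leaves. Of its 17 genes 16, all but SWEET12, had a named probe set. Besides SWEET11 and SWEET13 only 5 of the other 14 passed the filter. SWEET3, SWEET6, SWEET7, SWEET8, SWEET9, SWEET14 and SAG29 (SWEET15) averaged between 2.11 and 2.13 in every group, and AtVEX1 (SWEET5) between 2.13 and 2.81. SWEET10, the gene directly beside SWEET13 on chromosome 5, exceeded 4 on 1 array, with 2.98 ± 1.13 under high formaldehyde and 2.11 in the other groups.

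Among the 5 other tested SWEET genes, 2 fell and 0 rose under high formaldehyde against clean air, where 22.8% of all probe sets rose and 30.1% fell. This list and those below were chosen with earlier results of these data known, so their counts and adjusted p-values are a description. SWEET1, a glucose transporter at the plasma membrane, was at 4.46, 5.61 and 5.44 under high formaldehyde, against 6.09, 7.51 and 6.79 in clean air (log2). It fell by 1.63 (SE 0.45, adjusted p = 0.0100 in limma), and the arrays did not overlap. SWEET17, a fructose transporter of the vacuole membrane, was at 8.98, 8.51 and 8.68, against 9.72, 9.44 and 9.78 in clean air. It fell by 0.93 (SE 0.19, limma adjusted p = 0.00188), a call lost when outside plants served as control (difference -0.45, adjusted p = 0.0659). SWEET2, SWEET4 and SWEET16 did not pass, with differences of -0.43, -0.22 and -0.27.

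Low formaldehyde against clean air changed 1 of these 5, with 23.2% of all probe sets called. SWEET17 was at 8.89, 9.01 and 8.58 and fell by 0.82 (SE 0.19, limma adjusted p = 0.0122), and the call was lost without clean-air replicate 3 (adjusted p = 0.0514). SWEET2, a sugar transporter of the vacuole membrane, had the largest positive difference, 1.95 ± 0.66 (SE), and missed the threshold (adjusted p = 0.0541). Its values of 6.69, 7.62 and 8.5 under low formaldehyde overlapped the 6.87, 5.48 and 4.61 of clean air. From low to high formaldehyde SWEET2 and SWEET1 fell by 2.38 and 1.59 (adjusted p = 0.0116 and 0.0121 in limma). The call of SWEET1 was lost without low replicate 2 (adjusted p = 0.0542). SWEET4, SWEET16 and SWEET17 did not pass there, with differences of -0.13, 0.23 and -0.11. None of the 5 passed between clean air and the outside of the chamber or between low formaldehyde and the outside. The differences ran from -0.84 to 0.48 in the first of these and from -0.56 to 1.11 in the second (log2), and at an unadjusted p under 0.05 in limma 1 and 0 of the 5 passed.

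**Figure D2:**
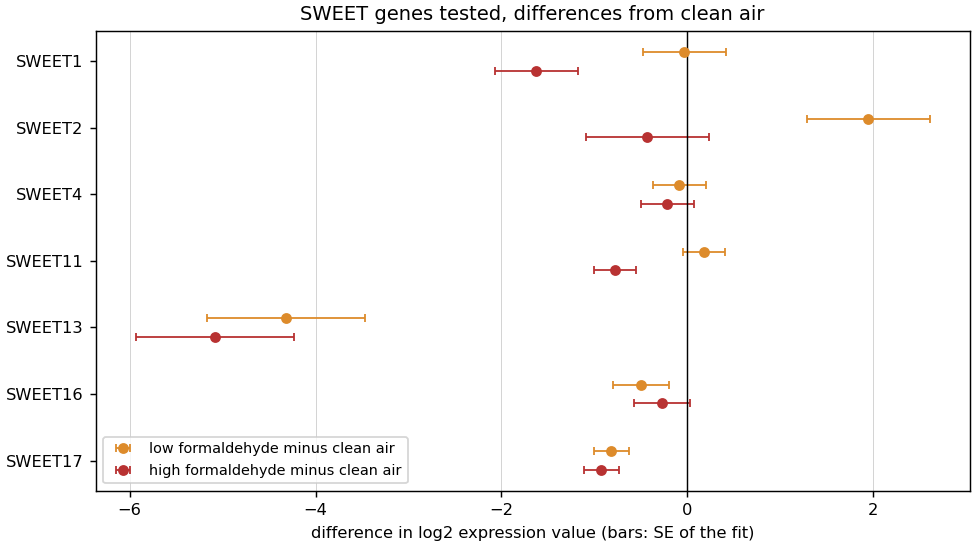
Differences in log2 expression value from clean air for the 7 SWEET genes that passed the filter, at low and at high formaldehyde, with the SE of the fit as bars. SWEET13 lies furthest left at both doses (-4.32 and -5.09), and SWEET17 also lies left at both (-0.82 at low and -0.93 at high). SWEET1 and SWEET11 are lower at high formaldehyde, and SWEET2 lies to the right at low formaldehyde.

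The 3 other tested genes of the sucrose synthesis list were lower under high formaldehyde. One of them, F2KP, acts on an inhibitor of the route, and the call of another, AT5G42740, was lost in 5 of 21 alternative fits. Of 16 genes of this list 5 had a named probe set, and besides ATSPS4F 3 passed the filter. All 3 fell against clean air and all 3 fell against low formaldehyde, where 30.1% and 28.7% of all probe sets were called lower, and 0 of 3 passed in limma between low formaldehyde and clean air, also at an unadjusted p under 0.05. Their median difference was -1.04 for high minus clean air, beside -0.10 over all tested probe sets. No other sucrose phosphate synthase gene could be followed, for want of a named probe set.

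AT2G35840, listed here as a sucrose phosphatase gene, was at 8.21, 8.36 and 8.70 under high formaldehyde, against 9.69, 9.66 and 9.64 in clean air (log2). It fell by 1.24 (SE 0.19, limma adjusted p = 0.000347). The 2 sets of arrays lay well apart. F2KP encodes the enzyme that makes and removes fructose 2,6-bisphosphate, an inhibitor of cytosolic sucrose synthesis. It was at 9.16, 9.15 and 9.49, against 10.35, 10.29 and 10.27 in clean air, and fell by 1.04 (SE 0.19, limma adjusted p = 0.00105). AT5G42740, listed as the cytosolic phosphoglucose isomerase gene, fell by 0.42 (SE 0.15, limma adjusted p = 0.0303) but missed the threshold without clean-air replicate 1 or high replicate 1 (adjusted p up to 0.114), in the fit of 6 arrays (0.0686), with array weights (difference -0.24, 0.0558) and with r2 spike-in scaling (0.0859). Against low formaldehyde these genes fell by 0.96, 1.07 and 0.38 in the same order (limma adjusted p = 0.00203, 0.00104 and 0.0464). The last failed in 11 of 12 fits that each left out an array, the exception being clean-air replicate 1. Between low formaldehyde and clean air the 3 differences were -0.28, 0.03 and -0.04, between clean air and the outside -0.16, -0.10 and -0.24, and between low formaldehyde and the outside -0.44, -0.07 and -0.27 in that order. The last comparison had 1 of 3 at an unadjusted p under 0.05 in limma and 0 after adjustment, and clean air against the outside had 0 at either. AT3G54270, the fifth, was at background in every group (2.11 to 2.19).

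Of 21 listed genes of sucrose cleavage 2 had a named probe set. Both were called lower under high and under low formaldehyde than in clean air, where 30.1% and 11.4% of all probe sets were called lower. AT1G62660, listed as a vacuolar invertase gene, was at 9.11, 9.64 and 10.19 outside the chamber and 8.75, 9.13 and 9.69 in clean air. It was at 6.44, 6.56 and 5.77 under low and 5.98, 6.62 and 7.08 under high formaldehyde (log2). Both formaldehyde groups lay wholly below both groups without it. Against clean air it fell by 2.94 at low and fell by 2.63 at high formaldehyde (SE 0.36 each, limma adjusted p = 0.00104 and 0.000140), and low formaldehyde fell by 3.39 against the outside (adjusted p = 0.000157). cwINV6, named a cell wall invertase but known in Arabidopsis to cleave fructans, was at background on all high arrays, at least 1.60-fold lower than in clean air (limma adjusted p = 0.00236). Clean air gave 5.28, 5.07 and 3.67, so its replicate 3 was at background too. Under low formaldehyde 2 of 3 arrays were at background. With values below 4 raised to 4 the low difference was -0.78 from clean air and -1.29 from the outside, and -1.60 and -2.23 as deposited (limma adjusted p of the deposited values 0.0367 and 0.00570). Raising the values ended both calls against clean air (adjusted p = 0.0508 at high and 0.0908 at low) and not the call against the outside (0.00868). The low call also failed in 5 of 12 fits that each left out an array (clean-air replicates 1 and 2, low replicates 1 and 2 and high replicate 2, adjusted p up to 0.126). It failed as well in the limma fit of the 6 arrays alone (adjusted p = 0.106) and with no filter (0.0884). Neither gene passed between high and low formaldehyde (0.30 for AT1G62660 and -0.69 for cwINV6) or between clean air and the outside (-0.45 and -0.62), also at an unadjusted p under 0.05 in limma. The sucrose proton symporters, SUC2 of the companion cells among them, had no named probe set.

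Among transporters of the vacuole membrane, TMT1 was called higher and TMT2 lower under high formaldehyde. Of the list of monosaccharide and tonoplast transporters 7 of 23 genes had a named probe set and 3 were tested, of which 1 rose and 1 fell under high formaldehyde, in a comparison that called 52.9% of all probe sets. TMT1, a sugar importer of the vacuole, was at 10.77, 10.13 and 10.08, against 9.26, 9.49 and 8.86 in clean air. It rose by 1.13 (SE 0.33, limma adjusted p = 0.0144), a call lost without clean-air replicate 3 or high replicate 1 (adjusted p up to 0.0606) and against outside plants (0.0767). Its relative TMT2 was at 5.72, 5.79 and 6.04, against 7.37, 7.59 and 7.71, and fell by 1.71 (SE 0.18, limma adjusted p = 2.24e-05). TMT2 was already lower at low formaldehyde, with log2 differences of -1.03 from clean air and -1.26 from the outside (limma adjusted p = 0.00388 and 0.000607), and its 4 groups of arrays did not overlap except clean air with outside. AT5G61520, a listed monosaccharide transporter gene, rose from low to high formaldehyde by 0.80 (limma adjusted p = 0.00785), as TMT1 did by 1.47 (0.00365), while TMT2 fell by 0.68 (0.00846). AT5G61520 also fell at low formaldehyde against the outside by 0.60 (adjusted p = 0.0438), which held in 4 of 12 fits that each left out an array (outside replicate 2, low replicate 1, clean-air replicates 1 and 3). Between clean air and the outside 0 of the 3 passed in limma, also at an unadjusted p under 0.05, with differences of 0.003 for AT5G61520, -0.38 for TMT1 and -0.23 for TMT2.

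Starch genes gave 3 falls among 4 tested under high formaldehyde, of 35 genes listed and 5 with a named probe set, where 30.1% of all probe sets were called lower. APL3, a subunit of the enzyme that commits glucose to starch, was, like SWEET13, highest in clean air. Its log2 values were 7.68, 7.81 and 7.87 outside the chamber, 9.02, 8.68 and 9.31 in clean air, 7.99, 7.89 and 8.17 under low and 6.87, 6.77 and 7.12 under high formaldehyde. No array of one group overlapped another group's. APL3 fell by 2.08 (SE 0.17) at high and fell by 0.98 at low formaldehyde against clean air (limma adjusted p = 4.58e-06 and 0.00402), and it was also lower at high than at low formaldehyde (adjusted p = 0.000404). In clean air it rose by 1.22 against the outside (adjusted p = 0.00763), the only 1 of the 22 tested pathway genes called there, where 3.04% of all probe sets were called. In the fit of those 6 arrays alone the adjusted p was 0.0562.

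The starch branching enzyme gene SBE2.2 fell by 1.03 at high formaldehyde and differed by -0.12 at low formaldehyde against clean air (limma adjusted p = 0.000289 and 0.615). PWD, a kinase that primes starch for breakdown, fell by 1.27 at high and fell by 1.39 at low formaldehyde (limma adjusted p = 0.00613 and 0.0115). The low call of PWD was lost in the fit of those 6 arrays alone (0.0529). Against the outside PWD fell by 1.41 at low formaldehyde (adjusted p = 0.00642). Between high and low formaldehyde SBE2.2 fell by 0.91 (limma adjusted p = 0.000771), and PWD, at 0.12, did not pass. DPE1, of maltotriose recycling, did not pass in any of the 5 comparisons, with differences from -0.96 to 0.23.

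The sugar starvation list, genes known to be raised when leaf sugar runs low, had 5 of 16 genes measured. High formaldehyde against clean air gave 3 rises and 1 fall, where 22.8% of all probe sets were called higher and 30.1% lower. AT3G15450 rose by 1.76, MCCA by 0.75 and IVD by 0.74, and MCCB fell by 0.48 (limma adjusted p = 0.0235, 0.0310, 0.0390 and 0.0286). MCCA and MCCB encode the subunits of methylcrotonyl-CoA carboxylase and IVD acts one step before it in leucine breakdown. The first 3 calls were each lost with no filter (adjusted p = 0.0685, 0.0685 and 0.0823), those of MCCA and IVD also with spike-in scaling (0.0564 and 0.0678). They were each lost without clean-air replicate 1 and without any 1 of the high arrays, those of MCCA and IVD also without clean-air replicate 3, and that of IVD without clean-air replicate 2. That of MCCB was lost without clean-air replicates 2 or 3 or high replicates 1 or 2 (adjusted p up to 0.131 among the 4 genes). Set against outside plants, MCCA at high formaldehyde differed by -0.01 (adjusted p = 0.978) and AT3G15450 by 0.94 (adjusted p = 0.187), whereas IVD rose by 1.08 (adjusted p = 0.00592) and MCCB fell by 0.59 (adjusted p = 0.0103).

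At low formaldehyde AKINBETA1, a regulatory subunit gene of the energy-sensing kinase SnRK1, was the only called member of that list. It was at 10.83, 10.53 and 9.86, against 8.82, 9.55 and 9.16 in clean air, and rose by 1.23 (SE 0.27, limma adjusted p = 0.00901). Its difference at high formaldehyde was 0.64 (adjusted p = 0.0607). Between high and low formaldehyde IVD rose by 1.32 (limma adjusted p = 0.00219) and no other member passed. None of the 5 passed between clean air and the outside, where AKINBETA1 and AT3G15450 gave -0.84 and -0.82, or between low formaldehyde and the outside, where they gave 0.39 and 0.39. At an unadjusted p under 0.05 in limma these counts were 2 and 0. No trehalose 6-phosphate gene had a named probe set.

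**Figure D3:**
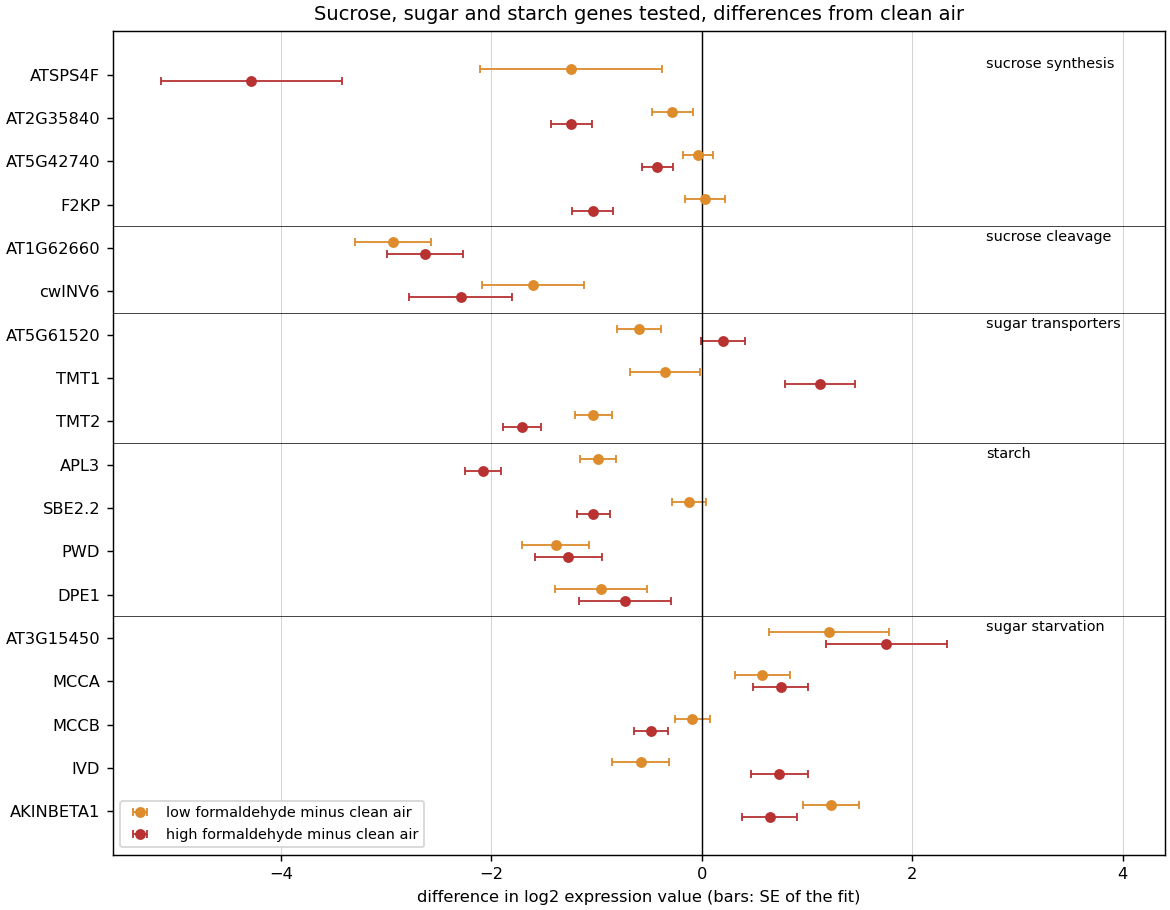
Differences in log2 expression value from clean air at low and at high formaldehyde for ATSPS4F and the 17 other tested genes of sucrose synthesis, sucrose cleavage, sugar transport, starch and sugar starvation, with the SE of the fit as bars. ATSPS4F is the furthest left at high formaldehyde (-4.28), AT1G62660 at low formaldehyde (-2.94), and the rises lie among TMT1 and the sugar starvation genes.

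Over all lists 40 of 156 genes had a named probe set, and 22 were tested besides the 3 described first. The lists, like the 3 genes, were chosen with earlier results of these data known. Counts above the shares of all probe sets are therefore described without a conclusion. High formaldehyde against clean air called 12 of the 22 lower and 4 higher, against 30.1% and 22.8% of all probe sets, with a median difference of -0.61 beside -0.10. Without high replicate 1 the number called was 10. Low formaldehyde against clean air called 6 lower and 1 higher, against 11.4% and 11.8% of all probe sets. High against low formaldehyde called 8 lower and 3 higher, with 28.7% and 21.1% of all probe sets, and low formaldehyde against the outside called 5 lower and 0 higher, with 17.5% and 18.0% of all probe sets. Some markers of leaf cells were also lower in the high arrays. The log2 of the summed level of the 3 mesophyll markers ran from 15.10 to 15.33 under high formaldehyde, against 15.75 to 15.98 in clean air, and the trichome marker TRY from 2.71 to 3.20, against 4.29 to 6.13. FMA of guard cells ran from 4.76 to 5.86, against 5.58 to 6.04. Companion cell markers had no named probe set, and the part of cell makeup in these results was not tested.

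Each of the 3 genes was also compared over the 12 arrays with the 7479 other tested probe sets of a single named gene, by Pearson's r. This is a description without a test, since arrays share their scaling and plants of a chamber group their run. The 5 genes named for each were picked for the highest r over these same arrays. That they follow it by group and by plant is therefore a result of that choice. The 5 genes most like ATSPS4F were AT1G04350 (r = 0.98), AT1G52590 (0.96), AT4G18810 (0.96), AT1G73650 (0.96) and AT5G38980 (0.96). AT1G04350 averaged 8.22 ± 0.54 under high formaldehyde, against 10.40 ± 0.14 in clean air (log2, SD), and, as in ATSPS4F, replicate 3 was the highest plant of both the outside and the low group.

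For SWEET13 the closest were AT1G57590 (r = 0.93), AT5G37790 (0.93), AT5G45350 (0.93), AT1G80130 (0.92) and AT1G68470 (0.92). AT1G57590 and AT1G68470 exceeded 4 only in clean air and on outside replicate 2, so their r rests largely on values at background. AT5G37790 was at background on all high arrays. AT1G80130 had the same order of the clean-air, outside and formaldehyde groups as SWEET13, at 10.88 ± 0.96 outside, 11.83 ± 0.48 in clean air, 9.44 ± 0.45 under low and 9.42 ± 0.43 under high formaldehyde. For SWEET11 they were AT1G49200 (r = 0.95), AT5G50420 (0.94), SPK1 (0.94), AT5G39080 (0.93) and AT5G48640 (0.93). SPK1, an activator of ROP GTPases that shape leaf cells, averaged 6.47 ± 0.36 under high formaldehyde, against 7.20 ± 0.15 in clean air.

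**Figure D4:**
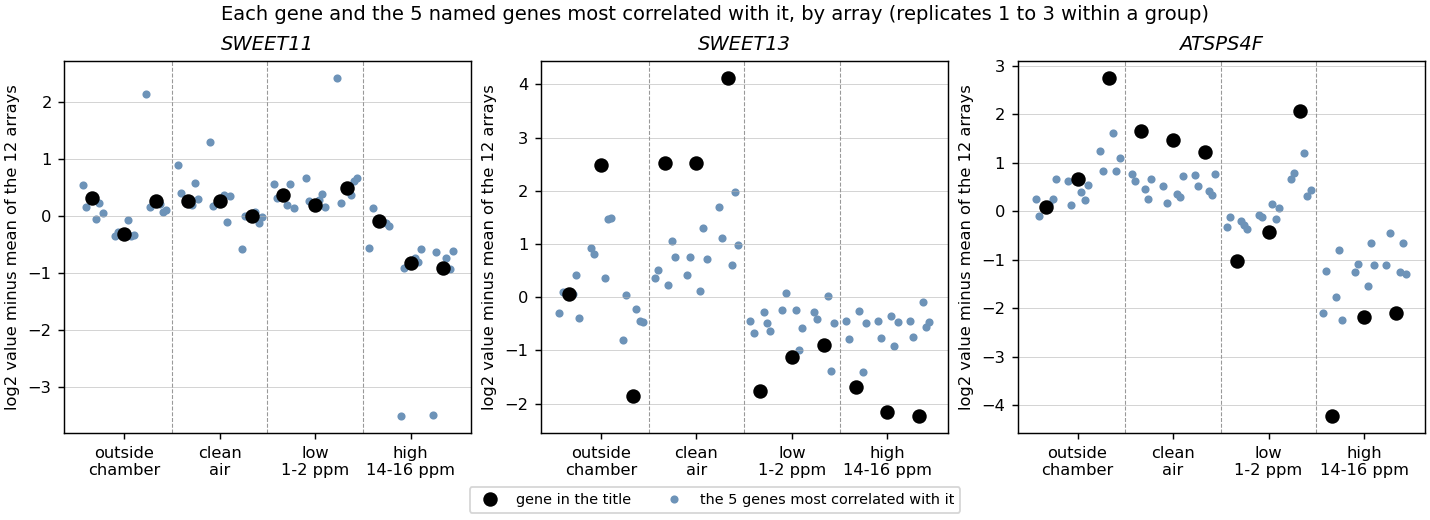
Log2 expression value minus the mean of the 12 arrays for SWEET11, SWEET13 and ATSPS4F (black) and for the 5 named genes most correlated with each (blue), with the 3 arrays of each group side by side. The blue genes were picked for their correlation over these arrays, so they follow the black points by that choice. They do so by group and, for ATSPS4F, also in the third plant of the outside and low groups. In the SWEET11 panel AT1G49200 spans by far the widest range.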

How the data were processed

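Biotin-labelled RNA of 12 leaf samples was hybridised to an Affymetrix array of 22810 probe sets. Each deposited value is a log2 expression level of 1 probe set, which per the submitters' processing notes the authors made with GCRMA. Its version is not stated there, and that the scale is log2 was read off the spread of values. Using limma 3.58.1 (R 4.3.3; lmFit, then eBayes with trend), 1 model of the 4 groups was fitted to the 13874 probe sets above 4 on at least 3 arrays, without 64 controls. Calls are Benjamini-Hochberg adjusted p under 0.05 over all of these. Precision is limited by the number of arrays, 3 in each group. The fit was tested on simulated data with 1 spread per probe set shared by all groups and changes planted only well above background. That setting does not cover values near background, as in SWEET13, or spreads that differ between groups, as in SWEET13 and ATSPS4F.

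The array's annotation lists 14016 probe sets, of which 13513 name 1 gene, 13436 of them matched by gene identifier to RefSeq (TAIR10.1), and only those were named. Loci with no symbol there carry the role of the list that holds them. The 3 genes and the 8 pathway lists were chosen with earlier results of these data known. The rule names the 3 genes, all measured genes of the SWEET, sucrose synthesis and symporter lists, up to 4 called genes of each other list per comparison (up to 2 where none was called) and the 5 most correlated genes; genes named beyond it (DPE1, and further values of genes already named) were added after their values were seen. Over all tested probe sets, deviations of arrays with the same replicate number correlated from -0.33 to 0.33 (10 of 18 pairs below 0.1). For different replicate numbers the range was -0.38 to 0.33, so the main fit has no block. Single genes may still follow the replicate number, as ATSPS4F did in the outside, low and high groups. The spike-in scaling and the control signals were first computed over part of the control probe sets. After those values had been compared with earlier results of these data, they were recomputed over all of them, and the first choice is kept as an added alternative chosen after seeing the data. Other alternatives were no filter, quantile normalization, scaling to 14 bioB, bioD and cre spike-in probe sets, values below 4 raised to 4, array weights, the 6 arrays compared alone, outside plants as the control, a replicate block and leaving out each array.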

Additional observations from a re-analysis of the deposited data

How the results depend on the processing

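SWEET13, high minus clean air, moved from -5.09 to -4.15 with values below 4 raised to 4 and to -2.26 with outside plants as the control, and high minus low moved from -0.77 to -0.0631 with values raised to 4, since values at background have no order. SWEET11, low minus clean air, moved from 0.18 to 0.0130 with spike-in scaling, which shifts the median of all probe sets in that comparison from -0.01 to -0.18 and in high minus clean air from -0.10 to -0.27. Low minus outside of SWEET13 passed without outside replicate 3 (-2.54, adjusted p = 0.0185). Fits without 1 array gave it -2.54 to -0.36 and adjusted p from 0.0185 to 0.687. Fits without 1 array called 10 to 17 pathway genes (16 in all arrays) for high minus clean air and 1 to 2 (1 in all arrays) for clean air minus outside, and the fit of the 6 arrays alone called 0 there (limma, with 103 of all probe sets called). MCCA reversed, to -0.00991, with outside plants as the control. Over all probe sets, clean air minus outside called 422 but 186 with no filter, 844 with spike-in scaling (266 over the r2 spike-in probe sets only, the choice computed first), 1188 with array weights and 65 to 528 without 1 array, and low minus clean air 3224 but 2084 with the r2 spike-ins, 4845 with array weights and 1600 to 3385 without 1 array. With the replicate block 3121 were called in low minus clean air and 7208 in high minus clean air (7337 without it). Among the pathway genes it ended the calls of cwINV6 (low minus clean air, adjusted p = 0.0545), AT5G42740 (high minus low, 0.0666) and AT5G61520 (low minus outside, 0.0582) and no other; SWEET13, low minus outside, stayed at -1.49.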
